A study of Homo sapiens with 4 samples.

Results

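The receptor for follicle-stimulating hormone (FSHR) and 9 genes of the cAMP cascade below it were examined across the 4 RNA libraries of the series. They were GNAS (the stimulatory G protein), the adenylyl cyclases ADCY3, ADCY6 and ADCY9, the protein kinase A subunits PRKACA, PRKACB, PRKAR1A and PRKAR2B, and the transcription factor CREB1. These 10 genes were taken by name from a table of 33880 genes, and each had exactly 1 row. The cells were KGN, an established human granulosa-like tumor line, infected with a control lentivirus (LV-CON, 2 libraries) or a TOX3 overexpression lentivirus (LV-TOX3, 2 libraries), and both vectors carried puromycin resistance. Virus was added at 1:200 and positive cells were selected with 2 mg/ml puromycin for 2 passages, so each group was a selected cell population, and in LV-TOX3 the added TOX3 was under the control of the vector. No source used here names FSH or another agent that raises cAMP among the additions to the medium. The libraries held between 16403371 and 17858746 reads. For TOX3 no read was counted in LV-CON, and LV-TOX3 replicates 1 and 2 gave 1586 and 1428, at least 529-fold higher against a floor of 3 reads per LV-CON library, which covers counting error only. Of 9 granulosa markers, 8 reached a mean of 0.5 RPKM (reads scaled to gene length and to the total of the library). Among them were FOXL2, NR5A1 and GATA4, and also FSHR itself and CYP19A1. INHA and WT1 were the lowest of the 8, at means of 0.87 and 0.94 RPKM. AMHR2 did not reach 0.5 RPKM. LHCGR (theca) and DAZL (oocyte) were not analysed here. No other marker of theca, oocyte, endothelial or epithelial cells reached a mean of 0.5 RPKM. PTPRC, listed for immune cells, did, at 0.501 to 0.763 RPKM per library.

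FSH drives follicle growth by binding FSHR, a receptor of the granulosa cell surface that acts through the stimulatory G protein Gs. The alpha subunit of Gs, encoded by GNAS, activates adenylyl cyclase, and the cAMP made by the cyclase binds the regulatory subunits of protein kinase A (PKA) and frees the catalytic subunits. Free catalytic subunits phosphorylate CREB1, which binds cAMP response elements (CRE) in DNA, and in granulosa cells this cascade is known for inducing the aromatase gene CYP19A1.

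The DNA just upstream of FSHR and PRKAR2B is shown because these were the 2 members with the largest differences between groups. A stretch of PRKAR1A is shown because it holds the only complete CRE found among the members. It precedes a later annotated start of PRKAR1A and lies inside the gene, which spans 68511780 to 68551319 on chromosome 17. The sequences are from RefSeq on GRCh38.p14, whose promoter windows were found for 8 of the 10 genes, ADCY6 and ADCY9 not among them. Each gene was read on its own strand over the 250 bases before an annotated start. Capitals mark an E-box (CACGTG), its variant CACATG and the nuclear receptor site AGGTCA in the first 2 sequences, and the CRE (TGACGTCA) in the third.
FSHR, chr2:49154516-49154765, minus strand: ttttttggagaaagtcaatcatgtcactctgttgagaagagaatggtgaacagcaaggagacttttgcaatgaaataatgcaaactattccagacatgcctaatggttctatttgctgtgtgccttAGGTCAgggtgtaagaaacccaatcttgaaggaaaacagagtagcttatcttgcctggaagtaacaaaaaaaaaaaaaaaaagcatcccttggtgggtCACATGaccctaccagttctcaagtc
PRKAR2B, chr7:107044455-107044704, plus strand: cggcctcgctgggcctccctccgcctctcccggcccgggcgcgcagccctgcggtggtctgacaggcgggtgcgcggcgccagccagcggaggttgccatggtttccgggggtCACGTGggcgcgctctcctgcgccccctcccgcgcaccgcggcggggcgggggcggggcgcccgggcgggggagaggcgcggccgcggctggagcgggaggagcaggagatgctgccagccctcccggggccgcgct
PRKAR1A, chr17:68512355-68512414, plus strand: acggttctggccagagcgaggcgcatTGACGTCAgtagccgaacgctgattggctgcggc

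The CACATG upstream of FSHR began 26 bases before the start and the AGGTCA 124 bases before it. The CACGTG upstream of PRKAR2B began 137 bases before its start. Searched on both strands, CACGTG was present in 6.34% of 35116 promoter windows of the same length, CACATG in 9.42%, AGGTCA in 12.1%, TGACGTCA in 1.65% and its shorter core TGACG, which lies within the complete CRE, in 21.2%. Among the 23 windows of the 8 members, CACGTG was present in 3, CACATG in 6, AGGTCA in 2, TGACGTCA in 1 and TGACG in 8. Some genes had several windows, and some of these overlapped, so the windows are not separate units. Counted by gene, the motifs were present in 3, 4, 2, 1 and 5 of the 8 members, in the same order. The FSHR window held neither CRE form. These matches describe letters in the sequence and carry no measure of binding.

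FSHR (ENSG00000170820, chromosome 2 of hg38 from 48962157 to 49154527, minus strand) showed the largest difference between groups among the 10 genes. Its level was 5.15 RPKM in LV-CON replicate 1 and 5.95 in replicate 2, against 9.62 and 10.0 RPKM in the LV-TOX3 pair. Both LV-TOX3 libraries thus lay above both LV-CON libraries, and the values rested on 290, 337, 531 and 520 reads in the same order. The mean was 5.55 ± 0.566 RPKM (SD, n = 2) in LV-CON and 9.81 ± 0.269 RPKM (SD, n = 2) in LV-TOX3, a ratio of 1.77. On the log2(RPKM + 0.1) scale the fold change was 0.81 (standard error 0.10), and it was 0.89 between the libraries numbered 1 and 0.74 between those numbered 2. FSHR ranked 14 of the 14184 tested genes in the limma test, but its adjusted p was 0.55, and 0.00705% of tested genes, TOX3 alone, passed an adjusted threshold of 0.05. The study named FSHR from these same libraries, so its value here is not independent evidence. Beyond the libraries, the study reported higher FSHR and CYP19A1 by qRT-PCR and western blot, measurements that were not examined here. By mean RPKM among the 10 genes FSHR was rank 8 in LV-CON, next to PRKAR2B, and rank 5 in LV-TOX3, above CREB1, PRKAR2B and ADCY6.

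**Figure D1:**
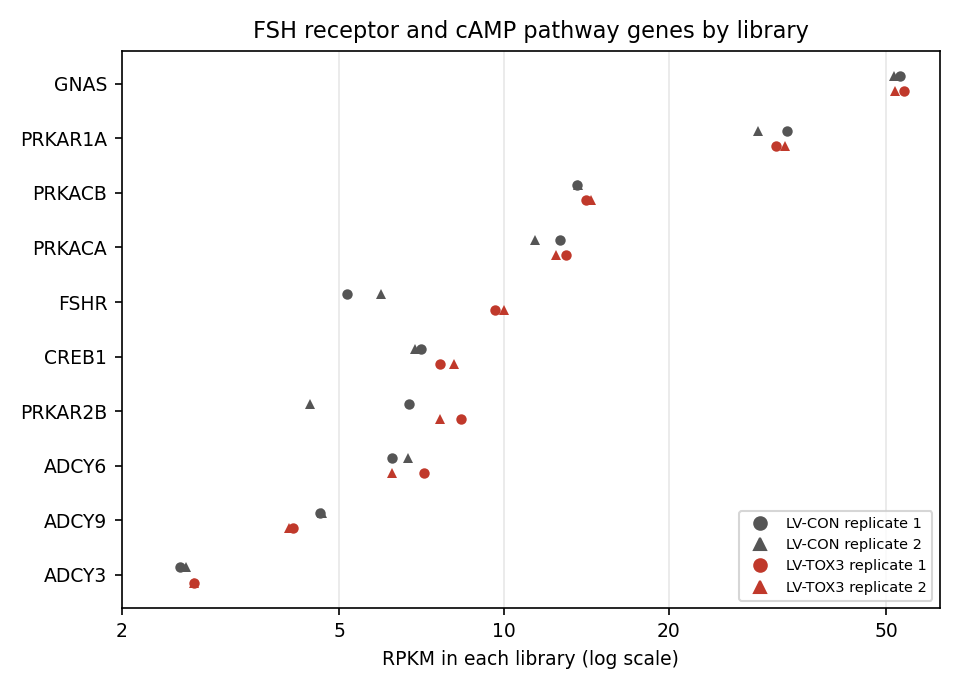
RPKM of the 10 genes in each of the 4 libraries, on a log axis, with genes ordered by their mean. Each point is 1 library (grey LV-CON, red LV-TOX3, circles replicate 1, triangles replicate 2). For FSHR the LV-TOX3 points, at 9.62 and 10.0, stand apart from the LV-CON points, at 5.15 and 5.95, while the points of GNAS lie together between 51.7 and 53.7.

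Below the receptor, GNAS differed least of the 10 genes between the groups. GNAS (chromosome 20 from 58839718 to 58911192, plus strand) had 52.9 and 51.7 RPKM in LV-CON and 53.7 and 51.8 RPKM in LV-TOX3, with overlapping groups and a log2 fold change of 0.01 (standard error 0.06). It was the most abundant of the 10, above 95.4% of tested genes. The RPKM values imply that its reads were divided by a length of 13320 bases, whereas the GENCODE canonical transcript has 1854 bases. Rescaled to that transcript, in an alternative chosen after the data were seen, its mean level was 377 RPKM, and GNAS, PRKAR1A and ADCY3 kept ranks 1, 2 and 10 among the genes. GNAS exons share 1127 bases with the antisense gene GNAS-AS1, which had a mean of 0.0631 RPKM. No source used here gives the strand setting of the counting, so reads of the 2 strands cannot be told apart.

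The 3 cyclases among the 10 genes are the membrane enzymes that turn ATP into cAMP. ADCY6 (chromosome 12 from 48766194 to 48789089), an isoform inhibited by calcium, had 6.23 and 6.68 RPKM in LV-CON and 7.12 and 6.23 RPKM in LV-TOX3. Its groups overlapped, and its log2 fold change of 0.05 (standard error 0.11) was 0.19 between libraries numbered 1 and -0.10 between those numbered 2. ADCY9 (chromosome 16 from 3953387 to 4116442) was the 1 gene of the 10 with a negative value. It had 4.61 and 4.65 RPKM in LV-CON and 4.10 and 4.04 RPKM in LV-TOX3, so the groups did not overlap and each pair of libraries lay within 0.021 of each other on the log2 scale. The log2 fold change was -0.18 (standard error 0.09), with a limma adjusted p of 0.77, and it lay between -0.19 and -0.17 with any 1 library left out. ADCY3 (chromosome 2 from 24819169 to 24920237), the lowest of the 10, had 2.56 and 2.63 RPKM in LV-CON and 2.71 and 2.71 RPKM in LV-TOX3, for a log2 fold change of 0.06 (standard error 0.11). Its groups did not overlap, but the gap was small beside the standard error. ADCY3 exons share 1488 bases with CENPO on the opposite strand (mean 2.54 RPKM), so some reads may belong to either gene. ADCY6 exons share 713 bases with a long noncoding RNA on the opposite strand, which was not analysed here.

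Across the cyclase family, ADCY6 was the most abundant by mean, followed by ADCY9, ADCY3 and ADCY7, and in both groups the library ranges of these 4 genes did not overlap. ADCY7 had a mean of 1.66 RPKM and a log2 fold change of 0.02. ADCY5 and the soluble cyclase ADCY10 stayed under 0.1 RPKM in every library, and ADCY2 and ADCY4 had 0 reads in all 4. ADCY1 and ADCY8 were not analysed here. CAP1, named for binding cyclase in yeast and best known as an actin regulator in mammals, had 40.5 and 43.0 RPKM in LV-CON and 38.5 and 39.4 RPKM in LV-TOX3.

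**Figure D2:**
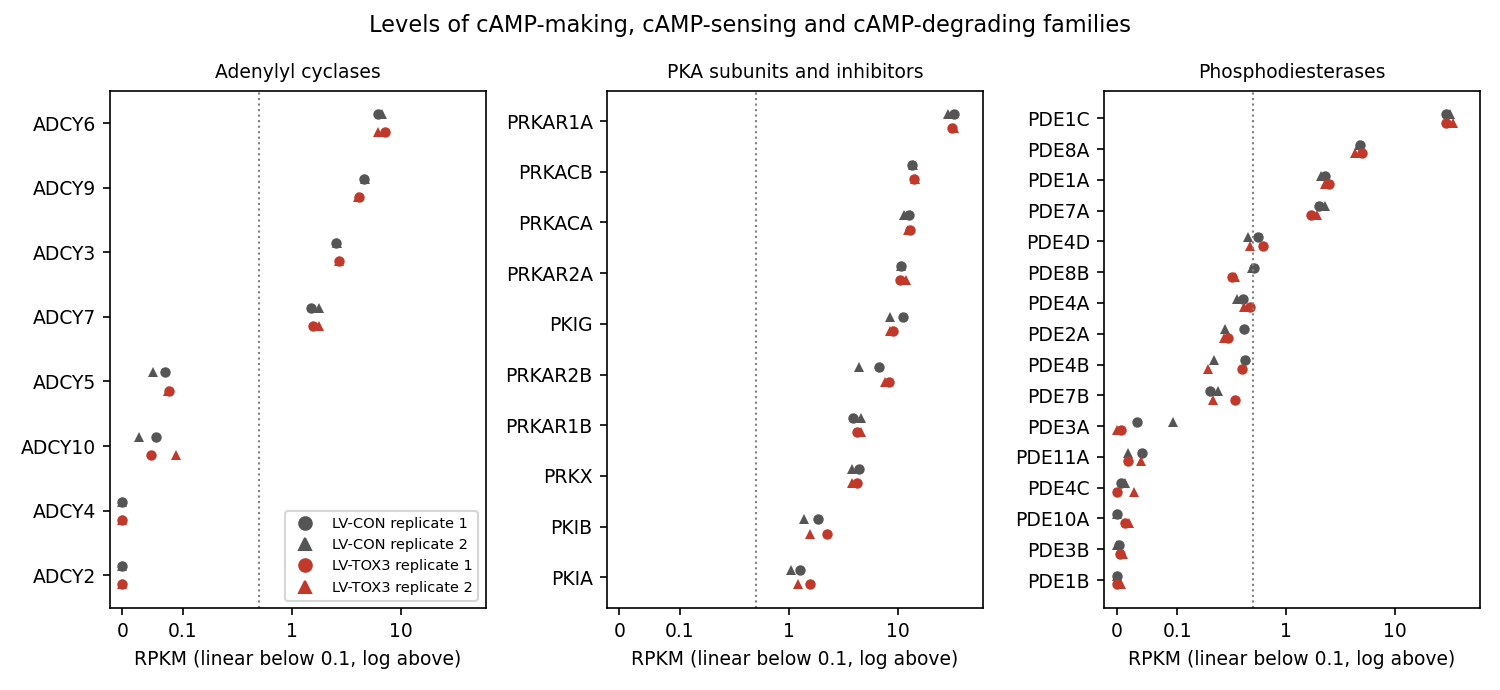
RPKM per library of adenylyl cyclases, PKA subunits and inhibitors, and phosphodiesterases (axis linear below 0.1 and logarithmic above; the dotted line at 0.5 is the filter on the mean for testing; colors and symbols give group and replicate). A few members of each family carry most of the signal, ADCY6 among cyclases, PRKAR1A among PKA genes and PDE1C among phosphodiesterases, and PRKAR2B is the PKA gene whose groups stand farthest apart.

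PKA is a tetramer of 2 regulatory and 2 catalytic subunits, and the type of regulatory subunit sets where in the cell it is held. Of the 4 PKA genes, PRKAR2B, the type II beta regulatory subunit, differed most. PRKAR2B (chromosome 7 from 107044705 to 107161811, plus strand) had 6.70 RPKM in LV-CON replicate 1, 4.42 in replicate 2, and 8.34 and 7.64 RPKM in the LV-TOX3 pair, from 514, 341, 627 and 541 reads. Both LV-TOX3 libraries lay above both LV-CON libraries, although the LV-CON libraries were 0.59 apart on the log2 scale, a gap larger than that of 90.4% of tested genes. The mean was 5.56 ± 1.61 RPKM (SD, n = 2) in LV-CON and 7.99 ± 0.495 RPKM (SD, n = 2) in LV-TOX3, a ratio of 1.44. The log2 fold change was 0.54 (standard error 0.21), with a limma adjusted p of 0.72. It was 0.31 between libraries numbered 1 and 0.77 between those numbered 2. LV-CON replicate 2 decided much of this value: the log2 fold change was 0.25 without it and 0.84 without LV-CON replicate 1.

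PRKAR1A, the type I alpha regulatory subunit, was the most abundant PKA gene, and its groups overlapped. PRKAR1A (chromosome 17 from 68511780 to 68551319, plus strand) had 32.9 and 29.1 RPKM in LV-CON and 31.4 and 32.6 RPKM in LV-TOX3, for a log2 fold change of 0.05 (standard error 0.09). PRKAR2A, the type II alpha subunit, had 10.8 and 10.6 RPKM in LV-CON and 10.5 and 11.8 RPKM in LV-TOX3. PRKAR1B, the type I beta subunit, stayed between 3.85 and 4.63 RPKM. Of the 4 regulatory genes, PRKAR2B alone had groups that did not overlap.

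The catalytic genes were near each other in level. PRKACB (chromosome 1 from 84078062 to 84238498) had 13.6 and 13.6 RPKM in LV-CON and 14.1 and 14.4 RPKM in LV-TOX3, so its groups did not overlap, with a log2 fold change of 0.07 (standard error 0.07). PRKACA (chromosome 19 from 14091688 to 14118084) had 12.6 and 11.4 RPKM in LV-CON and 13.0 and 12.5 RPKM in LV-TOX3, with overlapping groups and a log2 fold change of 0.08 (standard error 0.09). It was 0.0070 without LV-CON replicate 2 and 0.16 without LV-CON replicate 1. PRKACB lay above PRKACA in each of the 4 libraries. That order turned when levels were rescaled to canonical transcripts, to 20.9 RPKM for PRKACB and 28.2 RPKM for PRKACA over all libraries, again an alternative chosen after the data were seen. The 2 genes encode closely related kinases and could share reads, which makes the split between them uncertain. Among the inhibitors of the catalytic subunit, PKIG had 8.52 to 11.1 RPKM per library, PKIB 1.37 to 2.24 and PKIA 1.04 to 1.55, all with overlapping groups.

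CREB1, the factor phosphorylated by PKA, was slightly higher in both LV-TOX3 libraries without passing the test. CREB1 (chromosome 2 from 207529737 to 207605988, plus strand) had 7.05 and 6.88 RPKM in LV-CON and 7.62 and 8.11 RPKM in LV-TOX3, so the groups did not overlap. The log2 fold change was 0.17 (standard error 0.08), with a limma adjusted p of 0.76, and it lay between 0.13 and 0.22 with any 1 library left out. Its relatives ATF1 and CREM, which bind the same element, had 10.6 to 13.7 and 1.77 to 1.93 RPKM per library, with overlapping groups.

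**Figure D3:**
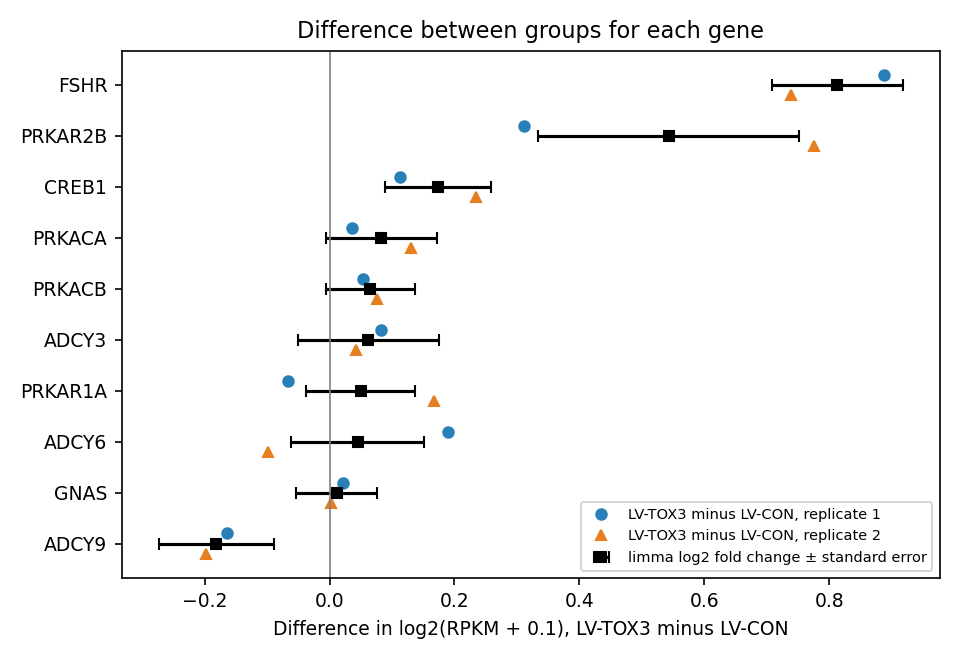
Difference between LV-TOX3 and LV-CON in log2(RPKM + 0.1) for the 10 genes. Squares with bars give the limma log2 fold change and its standard error, circles and triangles the difference between libraries numbered 1 and 2. FSHR is at 0.81 and PRKAR2B at 0.54, with the PRKAR2B points of the 2 numbers at 0.31 and 0.77, and the other 8 genes lie between -0.18 and 0.17.

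All 10 genes passed the filter of a mean of 0.5 RPKM. The sign of the log2 fold change was positive for 9 and negative for 1, where 46.8% of tested genes were positive, and the median was 0.06 against -0.01 over all tested genes. Both LV-TOX3 libraries lay above both LV-CON libraries for 5 (FSHR, PRKAR2B, CREB1, PRKACB and ADCY3), against 17.0% of tested genes, and below them for 1 (ADCY9), against 20.6%. For the other 4 the groups overlapped. At the thresholds the study used, a p under 0.05 before adjustment with a log2 fold change over 0.3 in size, the members past them were 2 (FSHR and PRKAR2B), both higher, where 2.28% of tested genes were higher and 2.64% lower. Under median ratio scaling, quantile normalization or no filter, FSHR alone passed. No member had a limma adjusted p under 0.05. Limma-voom on recovered reads with the replicate number as a block gave FSHR and PRKAR2B adjusted p-values of 2.1e-09 and 1.3e-04, where it called 2.14% of genes higher and 2.06% lower. No source ties the numbers to a batch. Of the 10 genes, 8 had an absolute log2 fold change under 0.2, as did 70.7% of tested genes. With 2 libraries a group, the smallest p that exact permutation allows is 0.33. The study calls its duplicate samples independent without saying whether they were separate cultures. The limma and limma-voom p-values therefore reflect library-to-library spread, which may be technical, and both methods borrow that spread across genes. With the same block, limma gave FSHR and PRKAR2B adjusted p-values of 0.18 and 0.28. The far smaller limma-voom values with the block lean on spread pooled over all genes, not on the 4 libraries of each gene alone.

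The other genes of the pathway were taken from 11 lists arranged by role. Across all lists 105 distinct genes were tested, 55 on the positive and 50 on the negative side. At an unadjusted p under 0.05, 7 were higher and 0 lower, where 3.07% of tested genes were higher and 3.73% lower, and without the 10 members these were 5 and 0 of 95. None had an adjusted p under 0.05. Without LV-CON replicate 2, 2 listed genes had an unadjusted p under 0.05, and without LV-TOX3 replicate 2, 4 had. The 7 were FSHR, PRKAR2B, 3 G protein subunits, the anchoring protein WASF1 and HIF1A.

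**Figure D4:**
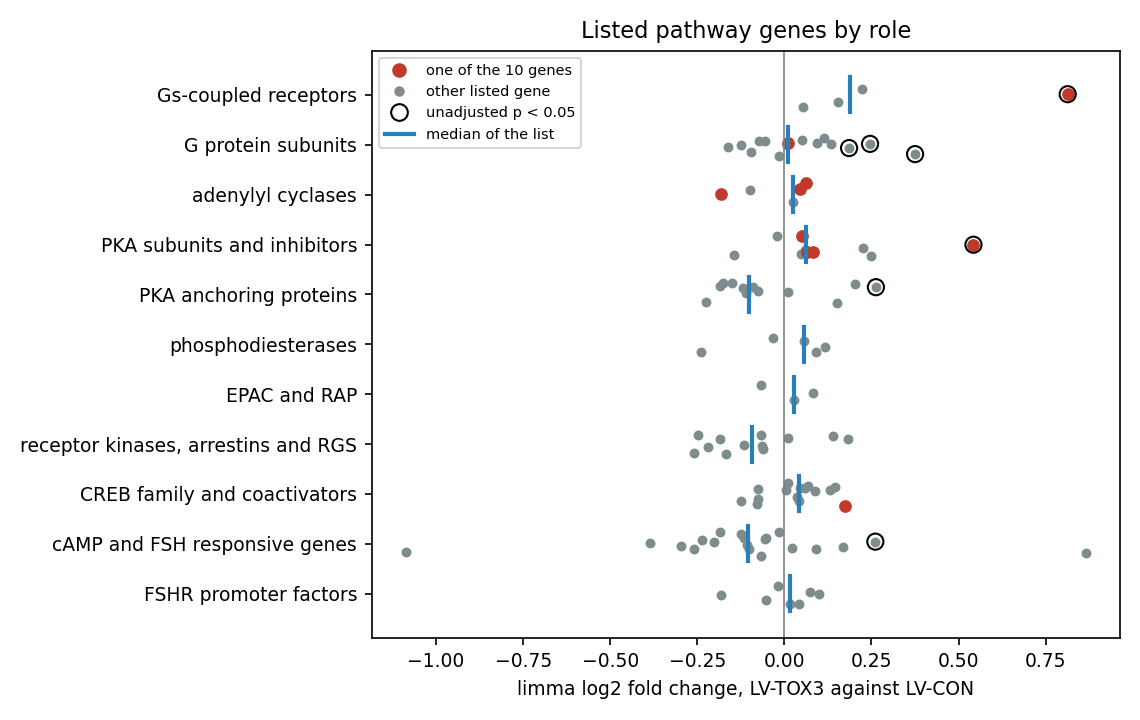
The limma log2 fold change of each tested gene of the 11 role lists. Red points are the 10 genes described above, grey points other listed genes, rings an unadjusted p under 0.05 and blue lines list medians. List medians lie between -0.10 and 0.19, and all 7 ringed genes are on the positive side.

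Among the measured receptors of a list of 17 that act through Gs, FSHR was the most abundant in each library. The adenosine receptor ADORA2B had 4.77 and 3.58 RPKM in LV-CON and 5.31 and 3.47 RPKM in LV-TOX3, and the prostaglandin E2 receptors PTGER2 and PTGER4 stayed between 0.543 and 0.899 RPKM. Of 15 receptors measured, 4 passed the filter and 11 lay below it. TSHR, the receptor for thyroid-stimulating hormone and a close relative of FSHR, had 1 read in all. The receptor for luteinizing hormone was not analysed here.

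Of 15 tested G protein subunits, 9 were positive and 6 negative, and 3 had an unadjusted p under 0.05, all higher, beside 3.07% of tested genes higher and 3.73% lower. GNB4, a beta subunit, had 4.30 and 3.92 RPKM in LV-CON and 5.06 and 5.66 RPKM in LV-TOX3, and the difference was 0.38 on the log2 scale (standard error 0.11) at a limma adjusted p of 0.70. GNG12, a gamma subunit and the most abundant gene of the list, had 116 and 114 RPKM in LV-CON and 127 and 147 RPKM in LV-TOX3. GNA13, an alpha subunit that signals to RhoA, had a mean of 22.1 RPKM in LV-CON and 25.2 RPKM in LV-TOX3. In each of these the groups did not overlap, as in GNAQ, also higher in both LV-TOX3 libraries. GNAI3, GNB1, GNB5 and GNG5 were lower in both, so 4 of the 15 lay above and 4 below, beside 17.0% and 20.6% of tested genes. The inhibitory subunit genes GNAI1, GNAI2 and GNAI3, which oppose Gs at adenylyl cyclase, had log2 fold changes of 0.09, -0.07 and -0.05, and the abundant beta subunit GNB2 had 0.01.

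Phosphodiesterases, which break cAMP down, were led by PDE1C, an enzyme activated by calcium and calmodulin. PDE1C had 29.3 and 31.8 RPKM in LV-CON and 29.6 and 33.9 RPKM in LV-TOX3, with overlapping groups. PDE8A, which is specific for cAMP, had 4.26 to 4.97 RPKM per library, and PDE1A 2.11 to 2.48. Of 16 members 5 were tested, 3 positive and 2 negative, and none had an unadjusted p under 0.05. Both LV-TOX3 libraries lay below both LV-CON libraries for 1 of the 5, PDE7A, at 1.69 and 1.90 against 2.02 and 2.26 RPKM, and above them for 1, PDE1A, at 2.48 and 2.30 against 2.28 and 2.11 RPKM, beside 20.6% and 17.0% of tested genes. The cAMP-specific PDE4 genes, which FSH is known to induce in Sertoli cells of the rat testis, stayed at or below 0.613 RPKM per library.

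Of 12 tested proteins that hold PKA in place, 4 were positive and 8 negative. In 3 of them both LV-TOX3 libraries lay above and in 3 below both LV-CON libraries, beside 17.0% and 20.6% of tested genes. WASF1, an actin regulator that also binds PKA, had 13.4 and 12.2 RPKM in LV-CON and 15.1 and 15.7 RPKM in LV-TOX3, a difference of 0.26 on the log2 scale (standard error 0.08). EZR (ezrin), the most abundant of the list, had 144 and 175 RPKM in LV-CON and 130 and 158 RPKM in LV-TOX3, and AKAP11 had a log2 fold change of 0.20. Among 12 receptor kinases, arrestins, regulators of G protein signaling and adaptors, 3 were positive and 9 negative, and 6 had both LV-TOX3 libraries below both LV-CON libraries, against the 20.6% of tested genes given above. GRK6, which phosphorylates activated receptors, had 8.21 and 9.03 RPKM in LV-CON and 7.54 and 7.21 RPKM in LV-TOX3. APPL1, an adaptor reported to bind FSHR, had 8.49 and 8.28 RPKM in LV-CON and 9.18 and 9.88 RPKM in LV-TOX3. None of the 12 had an unadjusted p under 0.05. RGS4 and RGS10, the most abundant of them, had log2 fold changes of -0.06 and -0.12, and both turned positive with some single libraries left out.

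Of 15 tested members of the CREB family and its partners, 11 were positive and 4 negative, with 1 (CREB1) above and 2 (CREB3 and CREB3L2) below the other group in both libraries, where 17.0% of tested genes lay above and 20.6% below. CREB3L1, a membrane-bound factor of the secretory pathway, was the most abundant at 66.4 to 70.3 RPKM. The coactivators CREBBP and EP300 had log2 fold changes of 0.01 and 0.06, and CRTC2, which cAMP signaling sends to the nucleus, had -0.08. RAPGEF3, which carries the cAMP signal to RAP1 independently of PKA, had 0.601 to 0.863 RPKM per library, and RAP1A and RAP1B had log2 fold changes of -0.07 and 0.03. Of 7 tested factors known to act on the FSHR promoter, 4 were positive and 3 negative and 0 had an unadjusted p under 0.05. Both LV-TOX3 libraries lay above both LV-CON libraries for 3 (USF2, FOXL2 and SMAD3) and below them for 1 (USF1), beside 17.0% and 20.6% of tested genes. USF1 and USF2, which bind E-boxes such as those printed above, had log2 fold changes of -0.18 and 0.10. With 1 library left out these ran from -0.31 to -0.056 and from 0.043 to 0.16. GATA4 had -0.05, and the nuclear receptor NR5A1 had 21.0 to 21.7 RPKM in the 4 libraries.

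Of 20 tested genes known to respond to FSH or cAMP, 5 were positive and 15 negative, where 46.8% of all tested genes were positive. Their median log2 fold change was -0.10, against -0.01 over all tested genes. HIF1A, a hypoxia factor whose activity FSH raises in granulosa cells, had 150 and 145 RPKM in LV-CON and 168 and 186 RPKM in LV-TOX3, a difference of 0.26 on the log2 scale (standard error 0.08) at a limma adjusted p of 0.70. It was the 1 gene of the list with an unadjusted p under 0.05. CYP19A1 (aromatase) had 7.08 and 4.25 RPKM in LV-CON and 13.8 and 7.37 RPKM in LV-TOX3. Both LV-TOX3 libraries lay above both LV-CON libraries for CYP19A1, at 0.87 on the log2 scale (standard error 0.37) and a limma adjusted p of 0.73. That value was 0.42 without LV-TOX3 replicate 1, 0.50 without LV-CON replicate 2, 1.23 without LV-CON replicate 1 and 1.31 without LV-TOX3 replicate 2. Between libraries of the same number it was 0.95 for number 1 and 0.78 for number 2, and with the replicate block the adjusted p was 0.18 in limma and 1.9e-21 in limma-voom. Of the 20, 3 (HIF1A, CYP19A1 and DUSP1) lay above and 3 (AREG, INHBA and RGS2) below the LV-CON libraries without overlap, beside 17.0% and 20.6% of tested genes. AREG, which encodes an EGF-like growth factor and was singled out after its values were seen, had 1.54 and 0.883 RPKM in LV-CON and 0.801 and 0.296 RPKM in LV-TOX3. These values rested on 45, 26, 23 and 8 reads in the same order. Replicate 2 minus replicate 1 was -0.74 in LV-CON and -1.19 in LV-TOX3 on the log2 scale. The AREG log2 fold change, -1.09 (standard error 0.52), was the furthest from 0 in the list, at a limma adjusted p of 0.76. CITED2, the second most abundant gene of the list, had 101 and 90.5 RPKM in LV-CON and 96.6 and 80.5 RPKM in LV-TOX3.

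The immediate early genes FOS, EGR1 and JUNB, which are switched on within minutes by many signals, cAMP among them, differed between replicate numbers and were chosen after their values were seen. FOS had 17.6 RPKM in LV-CON replicate 1, 2.46 in replicate 2, and 9.97 and 2.88 RPKM in the LV-TOX3 pair. EGR1 had 22.1 and 6.89 RPKM in LV-CON and 16.8 and 5.28 RPKM in LV-TOX3, and JUNB 11.7 and 6.55 against 10.1 and 5.43 RPKM. For these 3 genes each library numbered 2 lay below each library numbered 1. In the list as a whole 16 of 20 genes were lower in replicate 2 than in replicate 1 in both groups and 0 were higher in both, against 27.5% and 34.3% of tested genes. The gap between replicates exceeded the group difference in both groups for 12 of the 20, against 41.4% of tested genes. Among the 10 genes of the cascade the corresponding numbers were 3 lower (GNAS, PRKACA and PRKAR2B) and 2 higher (FSHR and PRKACB). No source used here says what the replicate number stands for.

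**Figure D5:**
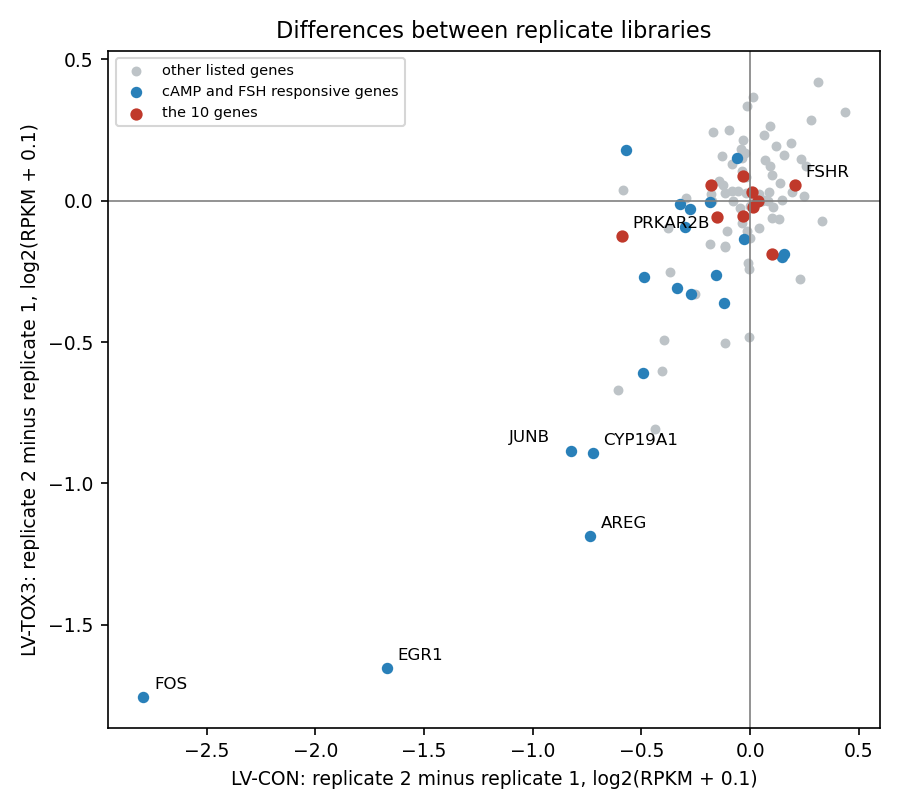
Difference between replicate 2 and replicate 1 in log2(RPKM + 0.1) within LV-CON (x axis) and within LV-TOX3 (y axis) for the 105 tested genes of the lists. FOS, at -2.79 and -1.76, and EGR1, at -1.67 and -1.65, lie far toward lower replicate 2 values in both groups, PRKAR2B is at -0.59 and -0.13, and FSHR is at 0.20 and 0.06.

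The tested genes whose 4 library values followed those of FSHR most closely, by Euclidean distance of mean-centred log2(RPKM + 0.1) among 12147 genes averaging 1 RPKM or more, were LAMC1-AS1 (distance 0.08), RPS2P55 (0.11), SLIT3 (0.12), AC007938.3 (0.21) and RNF138 (0.22). LAMC1-AS1, RPS2P55 and AC007938.3 rested on only 23 to 44, 15 to 27 and 16 to 31 reads per library. Counting error at such depths leaves their distances and their places in this order uncertain. SLIT3, a secreted guidance protein, had 2.31 and 2.88 RPKM in LV-CON and 4.15 and 4.66 RPKM in LV-TOX3. RNF138, a ubiquitin ligase, had 3.09 and 2.88 RPKM in LV-CON and 5.49 and 5.61 RPKM in LV-TOX3. Of the other members of the cascade, PRKAR2B was the nearest to FSHR, at a distance of 0.64 and rank 856, followed by CREB1 at 0.66 and rank 1113. This likeness was measured over 4 libraries only, and genes with a similar difference between groups come close by it.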

How the data were processed

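The authors describe filtering 150 nt reads from poly(A) RNA (SOAPnuke), placing them on hg38 (HISAT2) and quantifying genes by expectation maximization. The deposited values are RPKM, and the study does not state whether they came from that quantification. Versions of these read-processing tools were not given in the sources used here. Their own testing relied on limma-voom and ComBat, and whether batch effects were removed from the deposited values is not stated.

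For all 29088 genes above 0 the 4 values stood in ratios of whole reads (relative tolerance 1e-11), which gave reads per gene and library totals. The shared factor per gene was the smallest that made the implied gene length whole, so the reads given are the smallest numbers that fit. Simulated data tested the recovery before this factor was applied, and the factor itself was not tested. For EGR1 the implied length was 1569 bases, against 3137 exon bases in GENCODE, so its reads may be undercounted. Paired reads were not told apart from fragments.

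Groups and replicate numbers came from the sample titles. The 14184 genes averaging 0.5 RPKM or more entered a two-sided limma test (limma 3.58.1 in R 4.3.3, eBayes with a trend) of log2(RPKM + 0.1), with Benjamini-Hochberg adjustment over all of them. The added constant shrinks fold changes of low genes. The step was tested on simulated data. Coordinates and gene overlaps are those of GENCODE v44, which may differ from the annotation of the authors. Motifs were counted in Python 3.11.15.

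The 10 genes and the 11 role lists were chosen with earlier results of these data known. Named are all members and TOX3, from each list the 2 most abundant tested genes, the 2 with the smallest p and those with an unadjusted p under 0.05, the 5 genes nearest to FSHR, and cell type markers. Other listed genes were named after their values were seen. Alternatives were another pseudocount, 2 other filters, scaling by median ratios, quantile normalization, a block for the replicate number, each library left out, and limma-voom on recovered reads with and without the block. Rescaling to canonical transcripts was added after seeing the data.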

Additional observations from a re-analysis of the deposited data

How the results depend on the processing

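Over the 12 alternatives the log2 fold change of FSHR lay between 0.71 and 0.92 with 1 library left out and between 0.72 and 0.82 in the others. Its adjusted p ran from 2.1e-09 to 0.94. With a replicate block, limma gave FSHR an adjusted p of 0.18 and PRKAR2B 0.28, at unchanged log2 fold changes of 0.81 and 0.54. Limma-voom on recovered reads with that block called FSHR (log2 fold change 0.82, adjusted p = 2.1e-09) and PRKAR2B (0.53, adjusted p = 1.3e-04), and, of the 31 listed genes followed across alternatives, CYP19A1, GNB4, GNG12 and HIF1A. That fit called 596 genes, and its p-values lean on spread pooled over all genes. Without the block limma-voom called 1 gene. Deviations of same-numbered libraries from their group means had a correlation of 0.19 over 14184 genes. With 2 libraries per group this does not establish pairs.

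The members past the study's thresholds were 1 with no filter, median ratio scaling or quantile normalization, and 1 or 2 with 1 library left out. Directions of GNAS (-0.016 to 0.039), ADCY6 (-0.0496 to 0.14) and PRKAR1A (-0.0399 to 0.14) turned with a library left out, and those of the other 7 members held in all 12. PRKAR2B ran from 0.25 to 0.84.

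Genes past an adjusted p numbered 0 without the filter and 0 with any 1 library left out. At the study's thresholds, no filter gave 743 higher and 658 lower, the block 470 higher and 563 lower, and leaving out libraries 196 to 406 higher and 278 to 425 lower. Listed genes at an unadjusted p under 0.05 were 15 with the block in limma, 23 with it in limma-voom, and 2 to 7 with 1 library left out. NR5A1 changed sign under quantile normalization (8.1e-04). With 1 library left out the range spanned 0 for ADORA2B (-0.25 to 0.36), CITED2 (-0.25 to 0.015), CREB3L1 (-0.0044 to 0.077), GATA4 (-0.14 to 0.0397), GNB2 (-0.041 to 0.058), NR5A1 (-0.037 to 0.00204), PDE1C (-0.041 to 0.15), PDE8A (-0.14 to 0.077), PTGER4 (-0.016 to 0.46), RAP1A (-0.19 to 0.054), RAP1B (-8.0e-04 to 0.056), RGS10 (-0.37 to 0.13) and RGS4 (-0.40 to 0.27). The cause of these changes was not tested. At 269 to 286 reads per library, ADCY3 was the member counted least deeply.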
